A study of Malus domestica with 6 samples.

Results

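MdNAC18.1 is a transcription factor gene of apple (Malus domestica), carried in these data by the single identifier MD03G1222600, which was chosen by its identifier and makes up 1 of 48602 rows. NAC proteins are a plant-specific family that bind DNA through a conserved domain near the N-terminus and regulate transcription through a variable C-terminal part. MdNAC18.1 is related to the tomato ripening factor NON-RIPENING, and in apple variants at its locus are associated with harvest date and fruit firmness. Apple is a climacteric fruit, in which a burst of ethylene accompanies ripening, and NAC factors act upstream of ripening genes in such fruit. No file here gives names for the identifiers, so the name MdNAC18.1 rests on knowledge of the GDDH13 gene naming and not on the files. A table of apple genes from another assembly matched 0 of the 48602 identifiers. It lists a gene with the symbol NAC18 on a different chromosome, which was not taken for this gene.

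RNA was sequenced from the skin of mature fruit of 'Royal Gala', with 3 libraries from wild-type (WT) and 3 from miR172 transgenic plants. In plants the microRNA miR172 represses APETALA2-type transcription factors, and the study's title ties it to anthocyanin, the red pigment of apple skin. The labels give no promoter for the transgene, no name or number of transgenic lines and no age of the fruit. The labels call the libraries biological samples without saying whether they came from separate plants, so a p-value here speaks only of the spread among libraries, part of which may be technical. Flower libraries, which the series' design also names, are not analysed here. The label of mature fruit skin was not checked against marker genes, and neither was the level of miR172 or of its targets. No file here names other genes, and none was named from knowledge of the GDDH13 naming for such a check.

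MdNAC18.1 was among the most abundant transcripts of mature apple skin in both genotypes, and no difference in its FPKM between WT and miR172 skin was detected. FPKM count the fragments of a gene per kilobase of its length, after scaling for library size. In WT skin MD03G1222600 stood at 228 FPKM in replicate 1, 305 FPKM in replicate 2 and 227 FPKM in replicate 3. In miR172 skin it stood at 228 FPKM in replicate 1, 253 FPKM in replicate 2 and 346 FPKM in replicate 3. The genotypes overlapped over most of their range, with WT replicate 2 the highest of its group and miR172 replicate 3 the highest of all 6. The WT mean was 253 ± 44.9 FPKM and the miR172 mean 276 ± 62.1 FPKM (SD, n = 3 each), a difference of 22.5 FPKM that is smaller than either SD.

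On the log2(FPKM + 1) scale the fold change of MD03G1222600, miR172 over WT, was 0.11 ± 0.28 (SE, limma fitted across 24668 genes, adjusted p = 0.85). The 95% interval of this fold change ran from -0.52 to 0.75, that is from 0.695 to 1.68 times the WT level. The interval includes 0, is not adjusted for the number of genes and is not a limit of detection. The result does not show that the levels were equal. The two-sided exact permutation test on the FPKM of this gene gave p = 0.6, where 3 libraries against 3 cannot go below 0.1. As background, 8.59% of the 24668 genes tested passed adjusted p = 0.05, with 5.23% higher and 3.35% lower in miR172 skin. That split of 1291 genes higher and 827 lower depends on the processing. It was 1666 and 471 with values rescaled to recovered read totals, and 732 and 748 with a filter of 5 FPKM. With voom on recovered reads, which kept the library sizes behind the authors' FPKM and not the read totals, it was 631 and 637.

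The gene's values within a genotype lay closer together than those of most genes. The SD of log2(FPKM + 1) within genotypes was 0.28 for MD03G1222600. The median SD was 0.39 over all other tested genes, of which 28.1% had a smaller SD. Among the 731 genes whose mean lay within 2-fold of its own mean of 265 FPKM (132 to 529 FPKM), the median SD was 0.40 and 26.7% had a smaller SD.

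The read depth behind these values was high, so counting error was small against the spread between libraries. Whole reads could be recovered from the FPKM, and MD03G1222600 had 6599, 7472 and 7934 reads in WT replicates 1, 2 and 3. It had 9175, 10820 and 10089 reads in miR172 replicates 1, 2 and 3, from library totals between 17012710 and 23702606 reads. As a share of the library, WT replicates 1, 2 and 3 held this gene at 348, 439 and 335 RPM, its recovered reads scaled to a library of 1000000 reads. The exact Clopper-Pearson 95% intervals of these shares were 340 to 357, 429 to 449 and 327 to 342 RPM, and they cover counting error only. In miR172 replicates 1, 2 and 3 the gene held 474, 474 and 538 RPM, with intervals of 464 to 484, 465 to 483 and 527 to 548.

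By this share of the library the genotypes did not overlap, and every miR172 library lay above every WT library. The mean was 374 ± 56.8 RPM in WT and 495 ± 36.8 in miR172 skin (SD, n = 3 each), 1.32 times as high. The exact permutation p was 0.1, two-sided and the smallest that this design allows. Such a pattern was common, since in 23.9% of all tested genes every miR172 library lay above every WT library by RPM. The FPKM and the share differ because the divisors behind the authors' FPKM were not the read totals. Relative to the total, the divisor of WT replicates 1, 2 and 3 was 0.883, 0.833 and 0.855, and that of miR172 replicates 1, 2 and 3 was 1.20, 1.08 and 0.899. When FPKM were rescaled to recovered read totals, MD03G1222600 had a fold change of 0.41 ± 0.23 on the log2 scale (SE, adjusted p by limma 0.31), with a 95% interval from -0.12 to 0.94. Under this scaling the median over all tested genes lay at a log2 fold change of 0.25, and relative to that median the gene stood 0.16 higher. Rescaling by median ratios, in which the typical gene sets the scale, gave 0.14 ± 0.27 (SE, limma adjusted p = 0.80) for this gene. The deposited FPKM were already close to that scale, so this is not a separate check of them. The gene's mean moved from 253 to 246 FPKM in WT and from 276 to 274 FPKM in miR172 skin. Neither scaling brought the gene past the threshold.

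**Figure D1:**
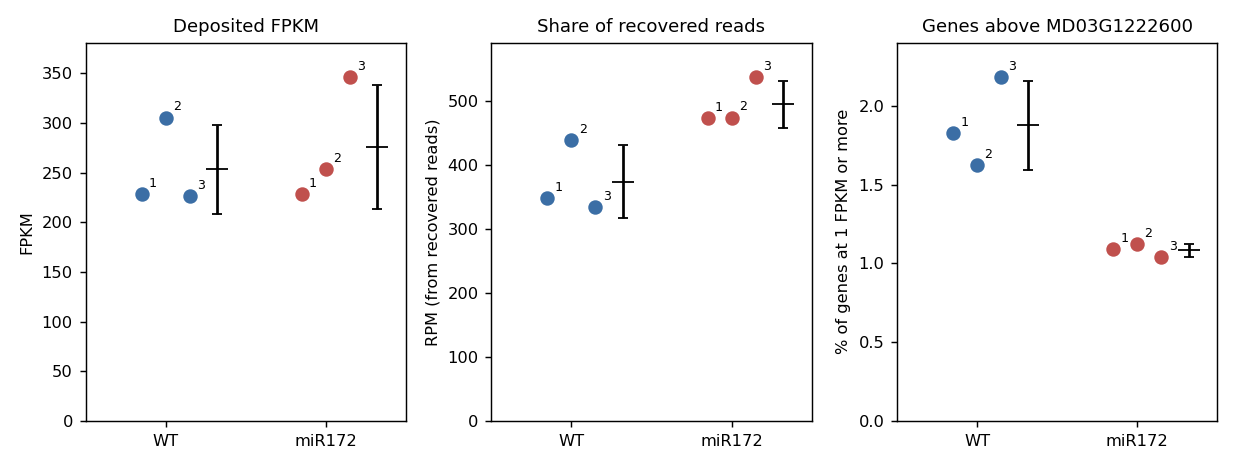
MD03G1222600 in each of the 6 libraries, as deposited FPKM (left), as RPM from recovered reads (middle) and as the percentage of genes at 1 FPKM or more that lay above it (right). Points are libraries numbered by replicate, and black bars are the mean ± SD of 3 libraries. FPKM overlap between genotypes, while the miR172 libraries at 474 to 538 RPM lie above the WT libraries at 335 to 439, and fewer genes lie above the gene in miR172 skin.

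**Figure D2:**
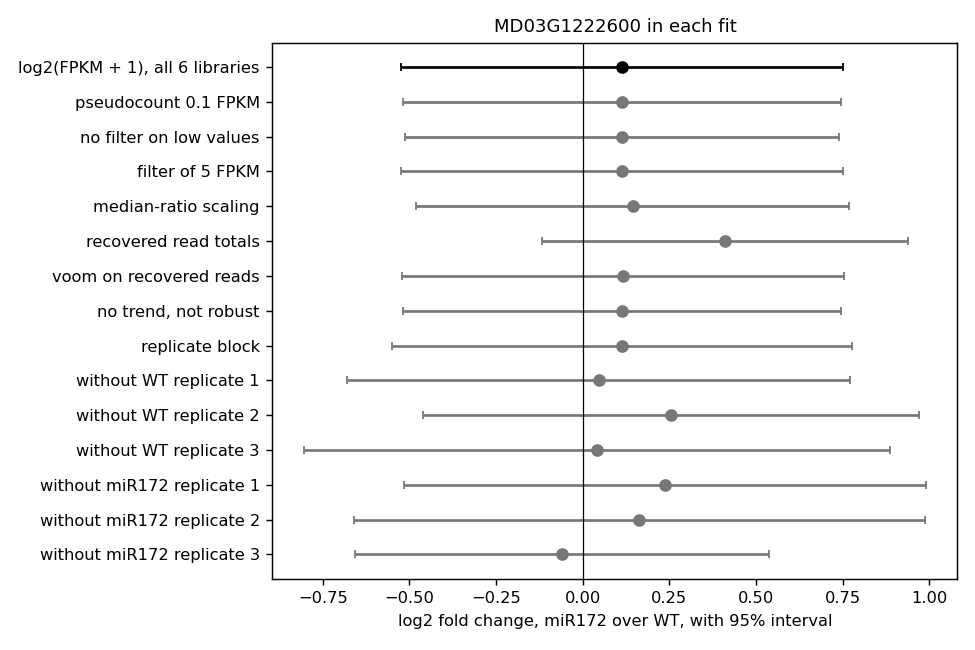
Log2 fold change of MD03G1222600, miR172 over WT, with its 95% interval (x axis), in the fit on log2(FPKM + 1) and in each of 14 alternatives (y axis). Every interval includes 0, and the values run from -0.061 without miR172 replicate 3 to 0.41 with recovered read totals.

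MdNAC18.1 held a higher place among the transcripts of its own library in all 3 miR172 libraries than in any WT library, a measure that no scaling between libraries can move. Ranked from the most abundant gene down by FPKM, MD03G1222600 held place 427, 366 and 497 in WT replicates 1, 2 and 3. Its place was 279, 282 and 247 in miR172 replicates 1, 2 and 3. A place also moves when other genes change, so a higher place does not show that MdNAC18.1 itself rose. Among all tested genes, 13.9% were likewise placed higher in every miR172 library than in every WT library. Of the genes at 1 FPKM or more, 1.83, 1.63 and 2.18% lay above it in WT replicates 1, 2 and 3, against 1.09, 1.12 and 1.04% in miR172 replicates 1, 2 and 3. The mean was 1.88 ± 0.28% in WT and 1.08 ± 0.042% in miR172 skin (SD, n = 3 each), with a two-sided exact permutation p of 0.1, again the smallest possible. Part of this percentage is its denominator, since the miR172 libraries held 23639 to 25536 genes at 1 FPKM or more and the WT libraries 22458 to 23305, but the places themselves are counts of the genes above.

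The same shift in place can be described by the genes that changed sides relative to MdNAC18.1. Over all libraries, 67 genes lay on opposite sides of it in the 2 genotypes. Of these, 62 genes, or 92.5%, were above it in all 3 WT libraries and below it in all 3 miR172 libraries. Since the gene's place moved up, most crossings had to be of this kind, and the share restates that move. By limma 38 of the 62 passed adjusted p = 0.05 as lower in miR172 skin, beside 3.35% of all tested genes. These genes were selected on the same values, so nothing is read from that count. Another 149 genes lay above MdNAC18.1 in all 6 libraries. Leaving out a library raises the number that changed sides by construction, to between 69 and 116 genes. The largest rises came on leaving out WT replicate 1 (112 genes) or WT replicate 2 (116 genes). On leaving out miR172 replicate 3 the number was 108, and the share that fell below MdNAC18.1 was the lowest, at 79.6%.

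In FPKM as deposited, most genes of a similar level to MdNAC18.1 had a log2 fold change below 0, while with recovered read totals nearly as many lay above 0 as below. The 731 genes within 2-fold of its mean had a median log2 fold change of -0.34, against 0.11 for MD03G1222600, 204 of them lay above 0, and 79.6% had a lower fold change than MD03G1222600. Of these 731 genes 16 passed the threshold as higher and 70 as lower, or 11.8% in all, beside 8.59% of all tested genes. Scaled to recovered read totals, their median was -0.042 and 345 of the 731 lay above 0, with 23 passing as higher and 52 as lower. The fold change of MD03G1222600 was then 0.41, and 79.8% of them lay below it. Its distance from their median was 0.45 under both scalings. Rescaling libraries shifts all genes of this level almost equally, so that distance and percentage had to stay nearly the same. The median of these genes was 196, 244 and 226 FPKM in WT replicates 1, 2 and 3, and MD03G1222600 stood at 1.16, 1.25 and 1.00 times that median. The median was 149, 162 and 202 FPKM in miR172 replicates 1, 2 and 3, and the gene stood at 1.54, 1.56 and 1.72 times it. This ratio within a library was 1.14 ± 0.13 in WT and 1.60 ± 0.098 in miR172 skin (SD, n = 3 each), without overlap and with a two-sided exact permutation p of 0.1. The same held, in this direction, for 15.3% of the 731 genes. A ratio within a library shows that the gene and its peers changed unequally, and not which of them changed.

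**Figure D3:**
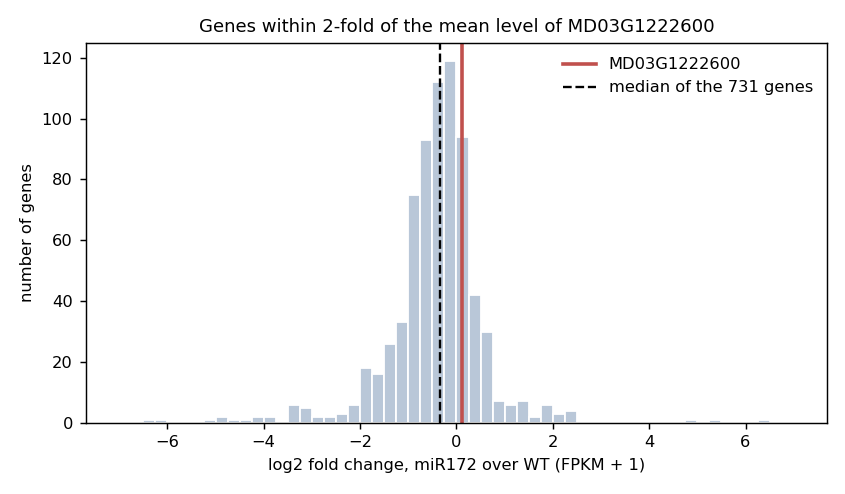
Log2 fold change, miR172 over WT on log2(FPKM + 1), of the 731 genes within 2-fold of the mean level of MD03G1222600 (x axis) and their number (y axis, bins of 0.25). The red line marks MD03G1222600 at 0.11 and the dashed line the median of these genes at -0.34, so MD03G1222600 lies to the right of 79.6% of them.

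MdNAC18.1 varied more among libraries of a genotype than between the genotype means on the log2(FPKM + 1) scale. The genes with the most similar and most opposite patterns are described here, and no such count was made for other genes. Likeness was measured by Pearson's r of log2(FPKM + 1) with MD03G1222600 over the same 6 libraries, among 15870 other genes that averaged 5 FPKM or more. It is a description, since with 6 libraries and this many genes high values arise easily and all points share a library and its scaling. The gene with the highest r was MD15G1435100, at 0.992 (Spearman's rho 0.771). MD15G1435100 stood at 26.3, 35.3 and 26.8 FPKM in WT replicates 1, 2 and 3 and at 26.3, 28.2 and 41.7 FPKM in miR172 replicates 1, 2 and 3. The next was MD13G1093300, with r = 0.985 (rho 0.771), at 5.25, 7.83 and 5.56 FPKM in the WT replicates and 5.45, 5.70 and 8.94 FPKM in the miR172 replicates. Both repeat the high WT replicate 2 and miR172 replicate 3 of MdNAC18.1.

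The most opposite patterns were those of MD00G1097000, with r = -0.984 (rho -0.943), and MD13G1061100, with r = -0.982 (rho -0.771). MD00G1097000 stood at 8.82, 4.95 and 9.48 FPKM in WT replicates 1, 2 and 3 and at 11.0, 7.77 and 3.42 FPKM in miR172 replicates 1, 2 and 3. MD13G1061100 stood at 9.52, 5.08 and 8.18 FPKM in the WT replicates and 8.89, 6.75 and 4.05 FPKM in the miR172 replicates. Both were lowest in their genotype where MdNAC18.1 was highest. None of these 4 genes passed the test between genotypes, with limma adjusted p from 0.77 to 0.89. An r above 0.9 was found for 83 genes and an r below -0.9 for 67, and 0 of either set passed adjusted p = 0.05, which the choice by likeness to a gene with overlapping genotypes makes likely. The summed FPKM of the library was also highest in these libraries, at 912787 in WT replicate 2 against 782590 and 853565 in the other WT libraries, and at 787207 in miR172 replicate 3 against 604907 and 674348. The part of this in the pattern of MdNAC18.1 was not tested.

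**Figure D4:**
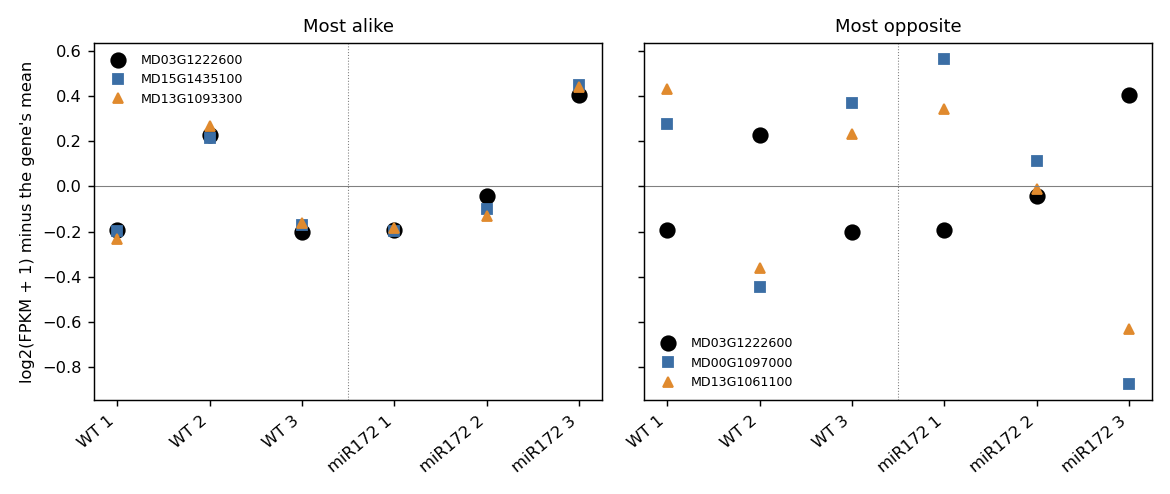
Log2(FPKM + 1) minus the gene's own mean (y axis) in the 6 libraries (x axis) for MD03G1222600 (black) with the 2 genes of highest r (left) and the 2 of lowest r (right). WT replicate 2 and miR172 replicate 3 are high in the left panel, and the genes of lowest r are low in them.

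MdNAC18.1 was the most abundant gene of its stretch of identifiers, which follow the chromosome in the GDDH13 naming. Of the 10 identifiers before and the 10 after it, 4 were at 0 in all libraries, 14 could be tested and 0 had a mean above its own. The highest mean among them was 121 FPKM. Of the 14 tested, 2 passed adjusted p = 0.05, beside 8.59% of all tested genes, and nothing is read from so small a count. Both are named after their values were seen. MD03G1221800, 7 places before, was at 2.24 ± 0.45 FPKM in WT and rose to 27.1 ± 10.1 FPKM in miR172 skin (SD, n = 3). Its change on the log2(FPKM + 1) scale was 3.05 ± 0.32 (SE), at a limma adjusted p of 0.0016. MD03G1222300, 3 places before, had 7.99 ± 0.95 FPKM in WT and fell to 3.21 ± 1.06 FPKM (SD, n = 3). Its change on that scale was -1.12 ± 0.28 (SE), at a limma adjusted p of 0.044.

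The identifier directly after MdNAC18.1 was also abundant, and it is given here for that reason, after its values were seen. MD03G1222700 stood at 71.8, 265 and 222 FPKM in WT replicates 1, 2 and 3 and at 31.9, 62.3 and 71.3 FPKM in miR172 replicates 1, 2 and 3. The miR172 libraries all lay below the WT libraries, but WT replicate 1 was close to the highest of them. The share of all tested genes that separate this way in FPKM was not counted, so nothing is read from it. The log2 fold change of MD03G1222700, -1.61 ± 0.52 (SE), did not pass the threshold (limma adjusted p = 0.10). MD03G1223800, 10 places after MdNAC18.1, separated the other way, at 62.1 to 72.6 FPKM in WT and 88.0 to 205 FPKM in miR172 skin. It did not pass either (limma adjusted p = 0.11). Whether reads are shared between MdNAC18.1 and a neighbour or a near-identical copy was not tested, since coordinates and sequences were not used here. Across the whole chromosome code 03, 120 of 1373 other tested genes passed, or 8.74%, beside 8.59% of all tested genes.

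**Figure D5:**
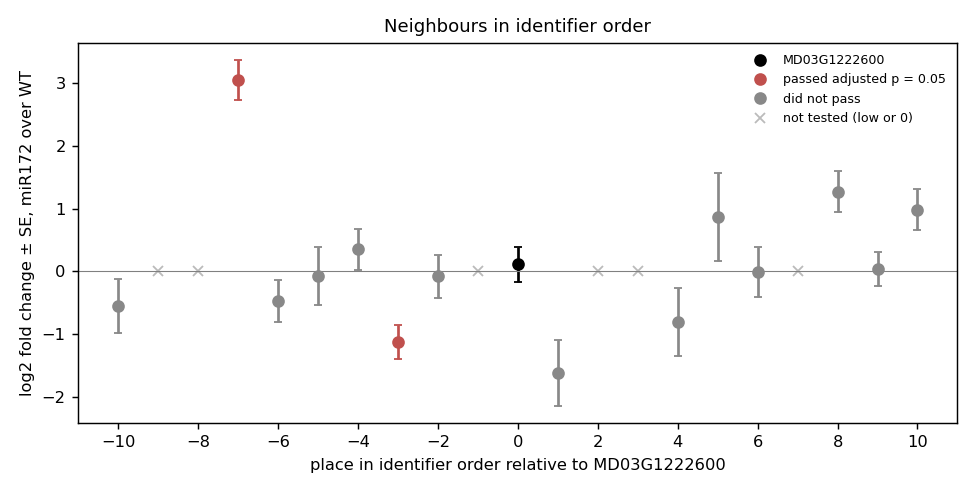
Log2 fold change ± SE, miR172 over WT on log2(FPKM + 1) (y axis), of MD03G1222600 (black, at place 0) and of the 10 identifiers on each side in identifier order (x axis). Red points passed adjusted p = 0.05, grey points did not, and crosses at 0 mark identifiers that were not tested. The 2 red points are MD03G1221800 at 3.05 and MD03G1222300 at -1.12.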

How the data were processed

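Per the labels' protocols, strand-specific libraries of poly-A RNA gave paired-end reads, for which Bowtie2 and the GDDH13 apple genome are named. HISAT2 2.0.5, StringTie 1.3.3b, featureCounts 1.5.0-p3 and DESeq2 1.16.1 stand without roles in the submitters' processing notes. The annotation and strand setting were not stated in the sources used here. The deposited values are FPKM, per the file headers, 1 column per library. Another 12 columns in 4 tables are of WT and miR172 flowers. They match no sample in the labels held here and were not used, so flower values of MdNAC18.1 are not given. Reads were recovered by finding, for each gene, the shortest length between 50 and 40000 bases that makes all reads whole within 0.0001 reads plus a relative 3e-09. This held for all 37804 genes above 0, and gave MD03G1222600 a length of 1728 bases. For a gene seen in 1 library some length fits easily, so success there says little. Among the 37804 were all 23856 genes above 0 in every library, where the demand is stricter. The test was limma 3.58.1 in R 4.3.3 (trend, robust, two-sided, Benjamini-Hochberg) on log2(FPKM + 1), for genes that averaged 1 FPKM or more. Fold changes on this scale understate the change of low genes. Exact permutation tests used SciPy 1.17.1, and the scripts were tested on simulated data. Besides MD03G1222600, the rule named the 2 genes of highest and the 2 of lowest Pearson's r with it. The member, rule and tests were chosen with earlier results of these data known. Alternatives were another pseudocount, filter, scaling, fit, a replicate block and each library left out. No library pair within a genotype looked like a library deposited again, since the chi-square per gene was at least 30.6. In each genotype 1 library stood further from the others. The pairs with WT replicate 1 had 106 and 70.7, against 30.6 for the other WT pair. The pairs with miR172 replicate 3 had 95.9 and 90.9, against 37.4 for the other miR172 pair.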

Additional observations from a re-analysis of the deposited data

How the results depend on the processing

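MD03G1222600 passed the threshold in 0 of 14 alternatives, with limma adjusted p from 0.31 to 0.97. Its log2 fold change of 0.11 ranged from -0.061 to 0.25 when each library was left out, and the only change of direction was -0.061 without miR172 replicate 3. In the other alternatives it ranged from 0.11 to 0.41, the latter with recovered read totals. The changes of filter, the fit without trend and the replicate block can alter only its error and p-value, and left the fold change as it was. The replicate block gave 0.11 ± 0.29 (SE) for this gene and 2308 genes called against 2118. Libraries that share a number had deviations correlated at 0.10, 0.101 and 0.039, against -0.152 to 0.103 for pairs of unlike number. These values do not settle whether the numbers pair samples. No label states a pairing, so the block stayed an alternative. Over all genes, voom on recovered reads called 1268 genes, and leaving out each library called 816 to 2622. The most were called without WT replicate 1 (2607) or miR172 replicate 3 (2622), the libraries that stood furthest from the others of their genotype. The cause was not tested. The 4 genes named for likeness were the same with a pseudocount of 0.1 FPKM. Taken over genes above 0 FPKM, the difference in the percentage of genes above MD03G1222600 was -0.63 percentage points, miR172 minus WT, against -0.79. Leaving out libraries in the count of genes that changed sides was chosen after the data were seen. With 3 libraries per genotype, spread between libraries and not read depth limits what can be detected for this gene.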
